A study of Rattus norvegicus with 24 samples.

Results

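Gatm, Agxt2, Khk, Fbp1 and Kap are 5 genes known from the proximal tubule of the kidney, and were taken by their symbols in the array's annotation from 1561 probes that held a value on at least 1 array. The measurements come from rat kidney, by the series title its medulla, compared on 24 two-colour cDNA arrays. The tested rats were strain 13, known from the study as salt-sensitive SS rats in which chromosome 13 was substituted from another strain, and the rats they were set against were SS. Each strain was on HS or on LS, read here as high-salt and low-salt diet, and the labels give 2 weeks. The labels used here give no age or sex and do not say whether replicates were separate animals or pools, so the p-values cover the spread among these RNA samples alone, and that spread may be technical.

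There were 4 comparisons: HS over LS in strain 13, HS over LS in SS, 13 over SS on LS, and 13 over SS on HS. Each had 3 replicates (RNA pairs), and each pair was hybridised on a forward and a dye-swap array, whose values were averaged. All values below are deposited log ratios of unstated base, so no fold is given. Their direction is not stated, and it was taken as likely that HS is set over LS and strain 13 over SS. The titles that name an RNA for each dye, read with the dye the labels give each channel, put 13 or HS in channel 1 on forward and dye-swap arrays alike, nearly all of these belong to strain arrays, and every title opens with LS before HS. Across 1164 probes the difference between the diet ratios of 13 and SS correlated with the difference between the strain ratios on HS and LS at r = 0.58 (genes are not independent replicates). It was -0.23 with the SS diet comparison turned, 0.17 with the strain comparison on LS turned and 0.24 with both turned. Other turns were not computed. A turn of all signs at once would give the same r and cannot be told apart from the direction used. Of the 6 SS diet arrays, 5 have titles with no strain and 1 has a title that opens like those of strain 13 but names SS RNAs, and it was kept with SS.

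The proximal tubule takes back most of what the glomerulus filters, and it is also a site of synthesis. Its cells make glucose from lactate and amino acids, break down fructose, and make the creatine precursor guanidinoacetate. The straight part of this segment runs into the outer medulla, so its transcripts are found in medullary tissue. Gatm encodes glycine amidinotransferase, the enzyme of the first and rate-limiting step of creatine synthesis. Agxt2 encodes a mitochondrial aminotransferase that uses glyoxylate, beta-aminoisobutyrate and asymmetric dimethylarginine. Khk encodes ketohexokinase, which phosphorylates fructose, and Fbp1 encodes fructose-1,6-bisphosphatase, a rate-controlling enzyme of gluconeogenesis. Kap encodes a kidney protein that in mouse is made in proximal tubule cells under control of androgens.

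Each of the 5 genes is listed at 2 probe IDs of which 1 held values. Gatm, Fbp1 and Kap had a value on all 24 arrays, Agxt2 on 23 and Khk on 21. All 5 had a value in each of the 12 RNA pairs. For Khk, 1 array of the pair stood alone in replicate 3 of the strain 13 diet comparison, in replicate 1 of the SS diet comparison and in replicate 1 of the strain comparison on LS, and the last also holds for Agxt2. The genes lie on chromosomes 3, 2, 6, 17 and 4 in the order given above, so none of them is on the substituted chromosome 13. Arrays held between 726 and 1402 values, and the number of arrays limits the precision.

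The upstream sequences of 3 of the genes are shown because Gatm was the 1 gene that passed the test below and Agxt2 and Kap had the most similar ratios among the 5. They are the 250 bases before the annotated start from RefSeq (build GRCr8), where all 5 genes matched an entry. Capitals mark matches, on either strand, to CAAAGTCCA (a site type bound by HNF4, a factor of proximal tubule and liver), GTTAAT (a half-site of HNF1, another such factor), CCAAT (the CCAAT box) and AGAACA (a half-site of steroid hormone receptors). These motifs do not overlap in the stretches shown.
Gatm, chr3:130129094-130129343, minus strand: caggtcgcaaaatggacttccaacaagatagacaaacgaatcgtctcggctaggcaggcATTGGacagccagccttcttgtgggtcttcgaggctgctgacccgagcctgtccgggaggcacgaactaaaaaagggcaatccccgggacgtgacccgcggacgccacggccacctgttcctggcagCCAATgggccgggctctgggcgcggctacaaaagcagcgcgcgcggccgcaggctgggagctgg
Agxt2, chr2:61063166-61063415, plus strand: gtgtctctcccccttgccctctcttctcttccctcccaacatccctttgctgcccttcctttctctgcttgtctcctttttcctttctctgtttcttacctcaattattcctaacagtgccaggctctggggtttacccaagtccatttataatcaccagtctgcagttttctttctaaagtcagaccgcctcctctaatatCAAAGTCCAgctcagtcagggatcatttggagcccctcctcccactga
Kap, chr4:168409033-168409282, minus strand: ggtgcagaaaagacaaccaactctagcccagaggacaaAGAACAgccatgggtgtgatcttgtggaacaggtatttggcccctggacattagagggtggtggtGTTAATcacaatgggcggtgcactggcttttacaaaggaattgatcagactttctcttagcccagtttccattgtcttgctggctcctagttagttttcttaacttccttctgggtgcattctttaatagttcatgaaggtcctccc
Agxt2 held CAAAGTCCA once, starting 48 bases before the start, a match found in 0.338% of the 33469 stretches of the same length. Kap held GTTAAT 147 bases and AGAACA 212 bases before the start, motifs found in 6.45% and 17.5% of stretches. Gatm held CCAAT 64 bases before the start and its reverse complement 191 bases before, and 34.0% of stretches hold it. Fbp1 also held the reverse complement of CCAAT, 150 bases before its start, and Khk held none of the 4 motifs. These matches describe letters and not sites in use.

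The comparison of strains on HS asks which transcripts differ between 13 and SS when both eat high salt. Gatm was lower in strain 13 on HS. Its log ratios were -1.64, -0.59 and -0.85 in replicates 1 to 3, a mean of -1.03 ± 0.55 (SD, n = 3; limma adjusted p = 0.0236), so all 3 pairs were below 0 and replicate 1 was the lowest. Only 3 of the 1350 probes tested had a lower ratio. Of the 5 genes 1 passed, where 6.00% of all probes tested passed in either direction, 3.63% as higher and 2.37% as lower. The call rests on replicates 1 and 3: without replicate 1 the mean was -0.72 (adjusted p = 0.149), without replicate 3 -1.11 (adjusted p = 0.0645), and with these 3 pairs fitted alone the adjusted p was 0.0965.

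The other 4 genes did not pass on HS. Agxt2 had -0.99, 0.01 and -0.54 (mean -0.50 ± 0.50, adjusted p = 0.108). Kap had -0.82, -0.04 and -0.42 (mean -0.42 ± 0.39, adjusted p = 0.173). In both, replicate 1 was the lowest and replicate 2 lay near 0. Khk had -0.72, 0.25 and -0.58 (mean -0.35 ± 0.52, adjusted p = 0.328), with replicate 2 above 0. Fbp1 had -0.12, -0.27 and -0.06, a mean of -0.15 ± 0.11 (adjusted p = 0.338), and did not share the order of replicates seen in the other genes. At an unadjusted p below 0.05 there were 3 of the 5 (Gatm, Agxt2 and Kap), all lower, against 23.1% of all probes in either direction and 9.85% as lower. All 5 means lay below 0, with a median of -0.42, where 45.1% of all probes lay below 0 and their median was 0.02.

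On LS the same comparison of strains called 0 of the 5 genes by limma, as it called 0% of the 1229 probes tested (lowest adjusted p over all of them 0.0904). Gatm had -0.77, -0.52 and -0.87 (mean -0.72 ± 0.18, n = 3, adjusted p = 0.104), which placed it sixth from the bottom of these probes by ratio, and all of its pairs were below 0. Agxt2 had -0.57, -0.11 and -0.64 (mean -0.44 ± 0.29, adjusted p = 0.156). Kap had -0.56, -0.13 and -0.39 (mean -0.36 ± 0.21, adjusted p = 0.257). Replicate 2 was the one nearest 0 in all 3 genes. Khk, the fructose-phosphorylating enzyme, had -0.10, 0.30 and -0.25 (mean -0.02 ± 0.28), and Fbp1 had -0.10, 0.01 and -0.19 (mean -0.09 ± 0.10), so the pairs of both lay on either side of 0. At an unadjusted p below 0.05 there were 2 of the 5, Gatm and Agxt2, where 21.8% of all probes were in either direction and 9.44% as lower. Gatm passed on LS from forward arrays alone (-0.83, adjusted p = 0.0375) and from dye-swap arrays alone (-0.61, adjusted p = 0.0498), settings in which a dye effect does not cancel. Over all probes 70 of 1061 passed on LS from forward arrays and 51 of 1156 from dye-swap arrays.

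**Figure D1:**
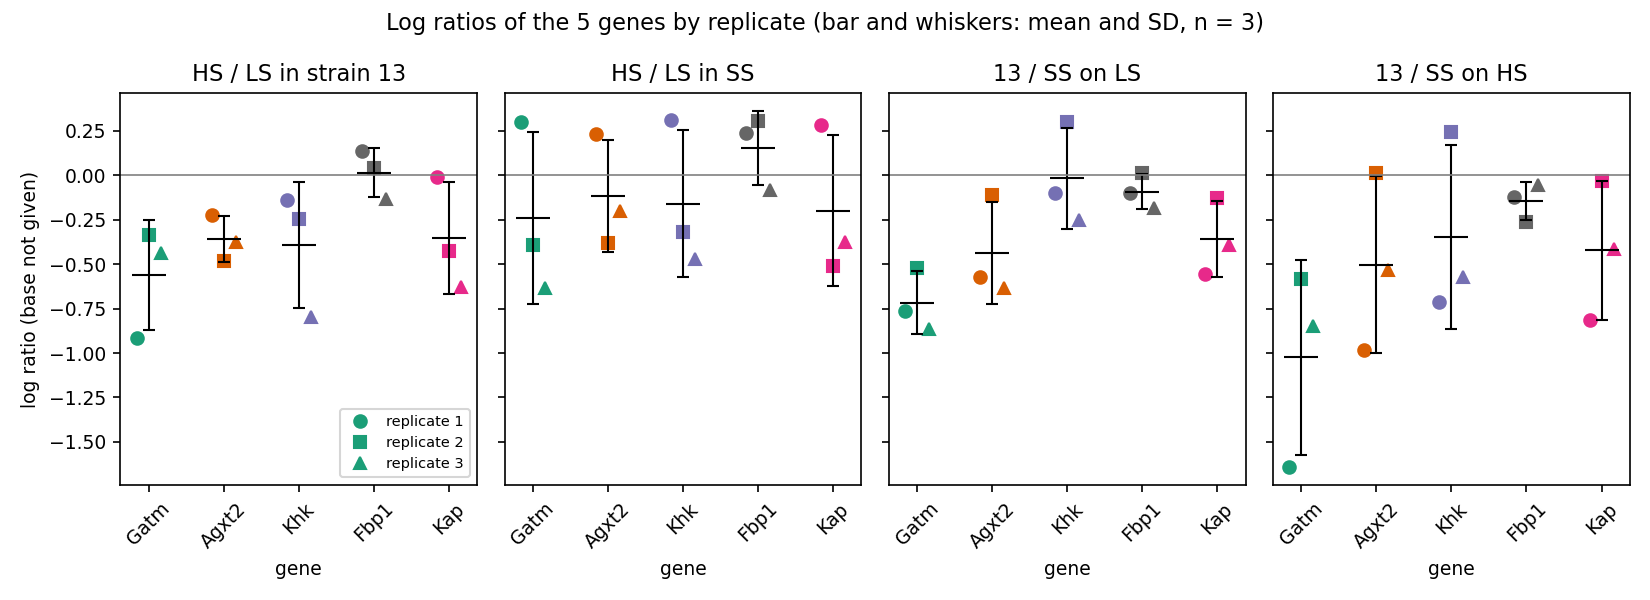
Log ratio (vertical axis, base not given) of each gene (horizontal axis) in the 4 comparisons, with a symbol per replicate and black bars for mean and SD (n = 3). Gatm lies below 0 in all replicates of both strain comparisons (-1.64 to -0.52), while Fbp1 stays between -0.27 and 0.31 in every panel.

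In strain 13 the diet comparison called 0 of the 5 genes by limma, and 0% of the 1287 probes tested (lowest adjusted p 0.324). Gatm had -0.92, -0.34 and -0.44 on HS over LS (mean -0.56 ± 0.31, n = 3, adjusted p = 0.418). It was the 1 of the 5 genes with an unadjusted p below 0.05 (0.0169), where 9.25% of all probes were in either direction and 4.43% as lower. Khk had -0.14, -0.25 and -0.80 (mean -0.40 ± 0.35), Agxt2 -0.23, -0.48 and -0.38 (mean -0.36 ± 0.13), and Kap -0.01, -0.43 and -0.63 (mean -0.36 ± 0.32). Each of these 4 genes was below 0 in all 3 pairs, and their adjusted p lay between 0.418 and 0.591. Fbp1 had 0.14, 0.04 and -0.14 (mean 0.01 ± 0.14), on both sides of 0.

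In SS the diet comparison again called 0 of the 5 (limma), where 2.82% of 1310 probes passed, 1.83% as higher and 0.992% as lower. At an unadjusted p below 0.05 there were 0 of the 5, where 19.5% of probes were in either direction and 7.79% as lower. Replicate 1 went against the other replicates in 4 genes. Gatm had 0.30, -0.39 and -0.64 (mean -0.24 ± 0.48), Agxt2 0.23, -0.38 and -0.20 (mean -0.12 ± 0.31), Khk 0.31, -0.32 and -0.47 (mean -0.16 ± 0.41) and Kap 0.29, -0.51 and -0.38 (mean -0.20 ± 0.43). Their spread between replicates was larger than each mean. Fbp1 had 0.24, 0.31 and -0.09 (mean 0.15 ± 0.21), with replicate 3 as the one below 0. The lowest adjusted p among the 5 genes was 0.355, for Fbp1.

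The design also asks whether the diet change differs between the strains. The difference (diet change in 13 minus that in SS), averaged over its diet-array and strain-array estimates, passed for 0 of the 5 genes, against 0.430% of 1164 probes (5 probes, or 8 with the replicate block), 0.258% as higher and 0.172% as lower. At an unadjusted p below 0.05 there were 0 of the 5 (limma), where 15.6% of probes were in either direction and 6.79% as lower. It was -0.32 for Gatm (SE 0.20, interval of 2 SE from -0.72 to 0.09, adjusted p = 0.459) and -0.28 for Khk (-0.68 to 0.12, adjusted p = 0.511). Agxt2 had -0.15 (-0.49 to 0.18), Kap -0.11 (-0.46 to 0.24) and Fbp1 -0.10 (-0.27 to 0.08). All 5 estimates were below 0 and all 5 intervals include 0. Of all probes 50.3% were below 0, and so were 9 of 10 other proximal tubule markers tested (median -0.17). For Gatm the diet arrays gave -0.32 and the strain arrays -0.31. Without replicate 1 the Gatm estimate was 0.05, so its sign rests on that replicate. The titles of the strain arrays carry a text of unstated meaning, which in replicate 3 is shared by both diets, and there the strain-array estimate was 0.015 for Gatm, 0.10 for Agxt2 and -0.33 for Khk, and 0.13 for Fbp1 and -0.03 for Kap. In replicates 1 and 2 that text differs between the diets, and the 2 cannot be told apart. The fit treats all pairs as independent, although the titles name the same SS RNAs on several arrays of replicate 3. Over all probes, the deviations of the SS diet comparison and of the strain comparison on HS correlated at -0.62, -0.48 and -0.26 in replicates 1 to 3, and the SEs and intervals above leave this covariance out. The 2 comparisons enter the difference with opposite signs, so by this term alone the SEs and intervals are too narrow. The diet-array and strain-array estimates are for the same reason not independent of each other.

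The 4 ratios of a gene can be drawn together as a relative level in each condition, by fitting 3 condition levels to the 12 pairs so that the comparisons must close, an estimate added after the data were seen. Relative to the mean of the 4 conditions, Gatm stood at -0.72 in 13 on HS, -0.16 in 13 on LS, 0.31 in SS on HS and 0.56 in SS on LS (SE 0.11 each), a descending order from SS on LS to 13 on HS. Agxt2 had -0.39, -0.08, 0.15 and 0.32 in the same conditions (SE 0.09), and Kap -0.36, -0.03, 0.08 and 0.31 (SE 0.09). The estimates of these 3 genes fell in the same order, but not all of its steps were resolved: in this fit the diet step in strain 13 had an adjusted p of 0.205 for Gatm, 0.368 for Agxt2 and 0.35 for Kap, and for Kap 13 on LS and SS on HS differed by little more than the SE of either level. Khk had -0.30, 0.12, 0.02 and 0.16 (SE 0.11), with 13 on HS alone below 0, and Fbp1 -0.04, -0.08, 0.13 and -0.01 (SE 0.05). For SS on HS and SS on LS, the gap was within the spread in all 5 genes, as the SS diet values above show. SS on HS and 13 on LS were on no array together, and neither were 13 on HS and SS on LS, the ends of the order above. In this limma fit Gatm passed in strain 13 against SS on HS (-1.03, adjusted p = 0.00307) and on LS (-0.71, adjusted p = 0.0295). Agxt2 passed on HS (-0.55, adjusted p = 0.0236). Over all probes, 180 of 1266 passed on HS and 124 of 1204 on LS. The closed-loop fit also treats all pairs as independent. Its SEs and adjusted p leave out the covariance named above, and each comparison draws on the others, which may hold the same RNAs.

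**Figure D2:**
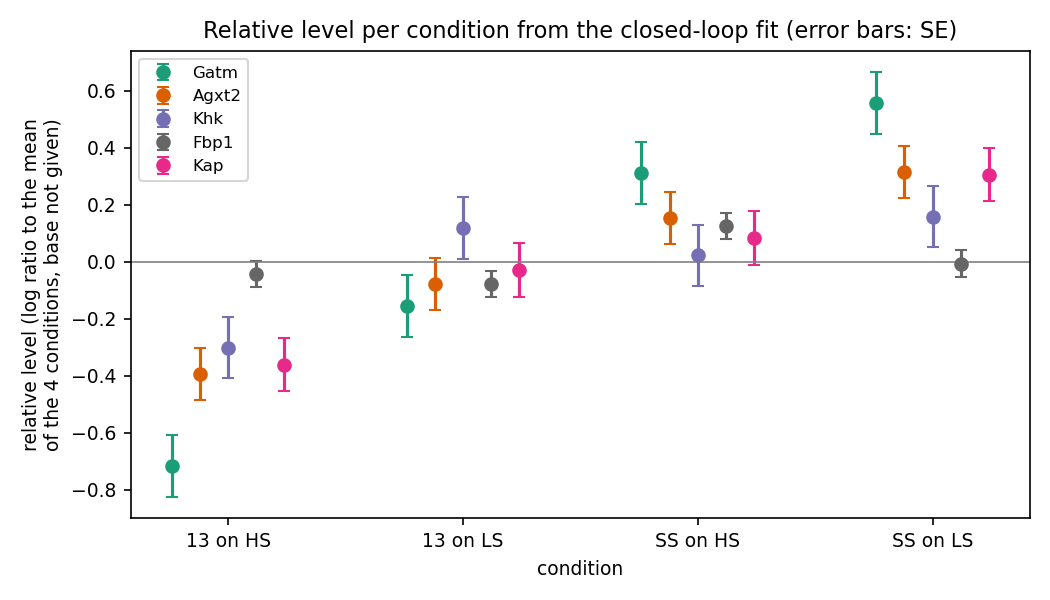
Relative level of each gene (vertical axis, log ratio to the mean of the 4 conditions, base not given) in 13 on HS, 13 on LS, SS on HS and SS on LS, with SE as error bars. The SEs leave out covariance between comparisons. Gatm runs from -0.72 in 13 on HS up to 0.56 in SS on LS, and Fbp1 stays within -0.08 to 0.13.

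The other genes of these pathways were described from lists. Of the fructose and gluconeogenesis list, 7 of 16 genes other than Khk and Fbp1 held values. In strain 13 against SS on HS 1 of 7 fell and 6 did not pass, with a median of -0.32. The 1 was Slc2a2, the basolateral glucose transporter of proximal tubule and liver, at -0.37 ± 0.13 (adjusted p = 0.0319). Pc, pyruvate carboxylase, had -0.32 ± 0.35, Slc37a4, which carries glucose-6-phosphate into the endoplasmic reticulum, -0.30 ± 0.17, and G6pc1, the glucose-6-phosphatase, -0.41 with 2 pairs far apart (SD 1.01, n = 2). The malate dehydrogenases Mdh1 and Mdh2 had 0.09 and 0.14. On LS 0 of 7 passed and all 7 were below 0 (median -0.26), with G6pc1 lowest at -0.45 (SD 0.57, n = 2) and Slc37a4 at -0.38 ± 0.27. The diet comparisons called 0 of 7 in either strain, with medians of -0.23 in 13 and -0.16 in SS, where Sord, which makes fructose from sorbitol, had -0.43 in both. Fbp1, at -0.15 on HS and -0.09 on LS, stood nearer 0 than Slc2a2, Pc, Slc37a4, G6pc1 and Sord (-0.32 on HS and -0.19 on LS). Mdh1 and Mdh2 stood nearer 0 than Fbp1 on HS and on LS, where each had -0.03.

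The glycolysis list lay on the other side of 0 in the strain comparisons. In strain 13 against SS on HS 1 of 10 genes rose, Ldhb, a lactate dehydrogenase subunit (0.39 ± 0.13, adjusted p = 0.0177), and 9 did not pass, with 9 above 0 and a median of 0.20 beside 0.02 over all probes. Aldoc, an aldolase, was highest at 0.40 (SD 0.25, n = 2) and Eno2, an enolase, lowest at -0.04. On LS 0 of 9 passed and 8 were above 0 (median 0.14). The diet comparisons called 0 of 9 in 13 and 0 of 10 in SS, with medians of 0.06 and 0.03.

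Around Gatm, the creatine and arginine list of 24 genes held values for 9, and in every comparison 0 of these passed (limma). In strain 13 against SS on HS Gamt, which makes creatine from the product of Gatm, had -0.36 ± 0.51, Ass1, of arginine synthesis, -0.45 and was lowest, and Ckb, the brain-type creatine kinase, 0.26 and was highest (median of 8 genes -0.05). Ass1 and Ckb had unadjusted p of 0.0297 and 0.0444 there. On LS the median was -0.09, with Oat, ornithine aminotransferase, lowest at -0.35 and Arg2, an arginase, highest at 0.06. In the diet comparisons the medians were -0.15 in 13 and -0.07 in SS, and Slc6a8, the creatine transporter, had 0.11 and -0.02. Gatm lay below every measured gene of this list in both strain comparisons and in the strain 13 diet comparison.

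Around Agxt2, the list of glyoxylate and beta-amino acid metabolism held values for 5 of 18 genes. Got1, a cytosolic aspartate aminotransferase, rose in strain 13 against SS on HS (0.39 ± 0.09, adjusted p = 0.0177) and fell on HS over LS in SS (-0.33 ± 0.06, adjusted p = 0.0286), 1 of 4 and 1 of 5 genes tested. Both comparisons use SS RNA on HS, on opposite sides of the ratio. Hao2, a peroxisomal hydroxyacid oxidase of kidney, had -0.45 on HS and -0.45 on LS in 13 over SS, and Upb1, which forms beta-alanine and beta-aminoisobutyrate, had -0.53 and -0.42 on HS over LS in 13 and in SS. None of these passed. Around Kap, the androgen-related list held values for 4 of 10 genes. In strain 13 against SS on HS 1 rose, Egf (0.29, adjusted p = 0.0434), which is made in the distal nephron, and 3 did not pass (median 0.04), and the other comparisons called 0 of 4. Ass1, also in the creatine and arginine list, was lowest there at -0.45 ± 0.37, where Kap had -0.42. On LS Ass1 had -0.09 ± 0.49 and Kap -0.36. On HS over LS Ass1 had -0.38 in 13 and -0.18 in SS, and Kap -0.36 and -0.20. Odc1, an androgen-responsive gene of mouse kidney, had -0.05 on HS and -0.14 on LS in 13 over SS, and Gusb 0.12 and 0.09.

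The 5 genes were set beside other markers of the proximal tubule, of which 12 of 35 held values and 10 had a value in every RNA pair. In strain 13 against SS on HS 1 of 10 tested fell, Cyp2e1, a cytochrome P450 (-0.67 ± 0.39, adjusted p = 0.0281), 9 did not pass and all 10 were below 0 (median -0.45). On LS 0 of 11 passed and 11 were below 0 (median -0.33), and the diet comparisons called 0 of 11 in 13 (median -0.38, 11 below 0) and 0 of 11 in SS (median -0.17, 10 below 0). Nearly all of these markers thus had ratios on the same side of 0 as Gatm, Agxt2 and Kap. In bulk tissue fewer cells of a type and less RNA per cell cannot be told apart, and the part that the amount of proximal tubule in each sample has in these ratios was not tested. The mean of the 10 markers was -0.83, -0.01 and -0.50 in replicates 1 to 3 of the strain comparison on HS and -0.37, -0.08 and -0.56 on LS, and 0.23, -0.43 and -0.36 on HS over LS in SS. In replicate 2 on HS and in replicate 1 of the SS diet comparison, where the marker mean was highest, Agxt2, Khk and Kap were also at their highest.

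Gatm had lower ratios than these markers in the strain comparisons. It lay below the marker mean in all 6 strain pairs and below every one of the 10 markers in 5 of 6. In replicate 2, where the marker mean was -0.01 on HS and -0.08 on LS, Gatm had -0.59 and -0.52. Its distance from the marker mean averaged -0.58 ± 0.23 on HS and -0.38 ± 0.07 on LS (SD, n = 3). In the diet comparisons the distance was -0.20 ± 0.40 in 13, where replicate 1 had -0.67 and the others 0.06 and 0.01, and -0.05 ± 0.19 in SS. Kap had mean distances near 0, of 0.03 ± 0.05 on HS, -0.02 ± 0.18 on LS, 0.01 ± 0.21 in the strain 13 diet comparison and -0.01 ± 0.07 in that of SS. On LS and in the strain 13 diet comparison its single pairs lay on both sides of the marker mean, from -0.19 to 0.17 and from -0.18 to 0.24. Agxt2 lay between -0.10 and 0.07 from it on average (SD 0.08 to 0.09). Khk lay 0.32 ± 0.06 above it on LS and 0.10 ± 0.17 on HS. Fbp1 was above it on average, by 0.38 ± 0.06 in the strain 13 diet comparison, 0.34 ± 0.37 in that of SS, 0.25 ± 0.14 on LS and 0.30 ± 0.50 on HS. In replicate 2 on HS it lay below all 10 markers, and the mean distances on HS and in the SS diet comparison were smaller than their SD. With 3 pairs an exact permutation test cannot fall below 0.25, and these distances are given without a test.

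**Figure D3:**
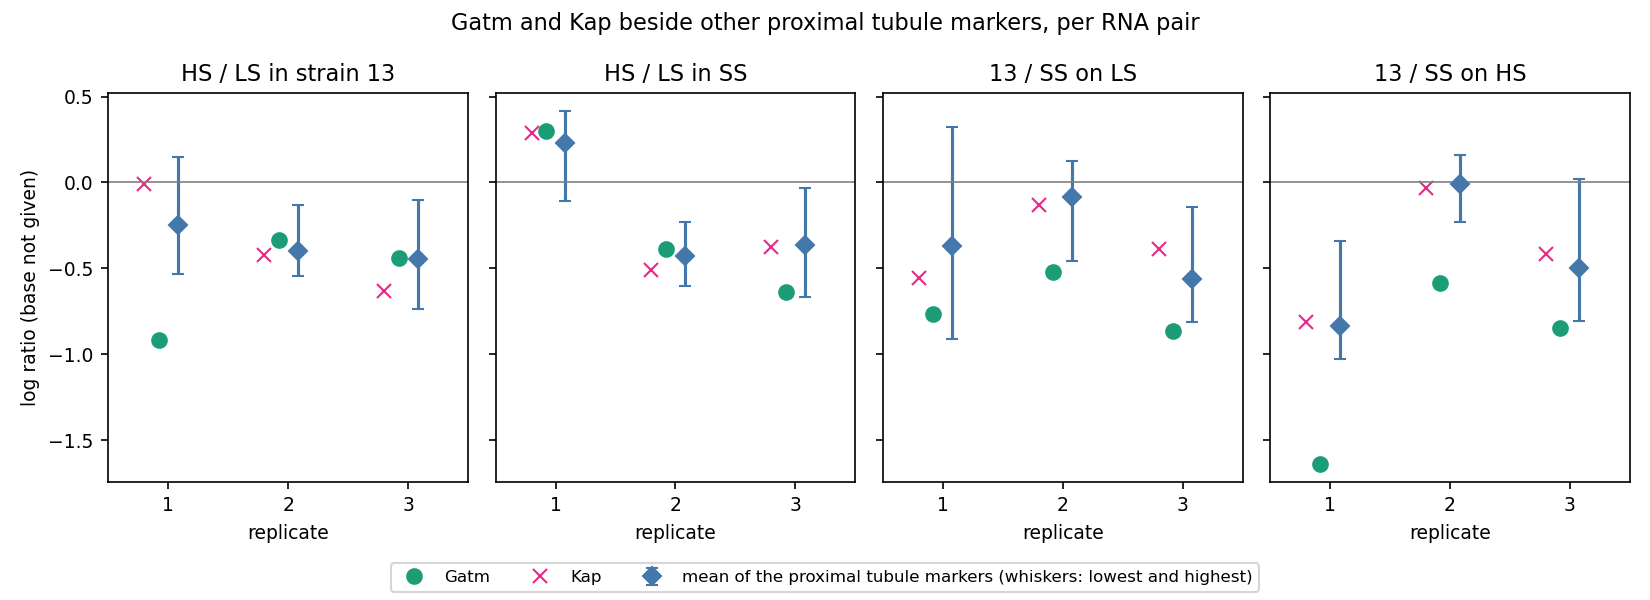
Log ratio (vertical axis, base not given) of Gatm, Kap and the mean of 10 other proximal tubule markers, with whiskers to the lowest and highest marker, in each replicate (horizontal axis) of the 4 comparisons. Kap lies on both sides of the marker mean, while Gatm lies under it in all 6 strain pairs and under the whole marker range in 5 of them.

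Correlations between the genes across the 12 RNA pairs are given as a description, since pairs share RNAs and arrays. Pearson's r was 0.88 between Agxt2 and Kap, 0.82 between Khk and Kap, 0.79 between Gatm and Agxt2, 0.71 between Agxt2 and Khk, 0.61 between Gatm and Kap and 0.52 between Gatm and Khk, against a median of -0.0015 over all pairs of 862 named probes with complete values. Fbp1 had 0.22 to 0.49 with the others, and 0.31 with the marker mean, where Agxt2 had 0.96, Kap 0.91, Khk 0.85 and Gatm 0.77. The SD over the 12 pairs was 0.17 for Fbp1 and 0.31 to 0.46 for the other genes, so Fbp1 was the least variable once both arrays of a pair were averaged. The order of these correlations differed between orientations. On dye-swap arrays alone r was 0.26 between Gatm and Khk and 0.57 between Gatm and Fbp1, and on forward arrays alone it was 0.71 and 0.01. Agxt2 with Khk (0.77 on dye-swap and 0.80 on forward arrays), Agxt2 with Kap (0.76 and 0.63) and Khk with Kap (0.56 and 0.65) were above 0.5 in both, with 10 to 12 arrays each. So was Gatm with Agxt2, though barely on dye-swap arrays (0.501 and 0.87).

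The genes most like each member were taken as the 3 with the highest correlation over the 12 pairs. For Gatm these were Cyp2c23, an arachidonic acid epoxygenase of rat kidney (r = 0.97), Pzp (0.92) and Mt3, a metallothionein (0.91). Cyp2c23 also matched it in size, with -1.19 ± 0.63 in strain 13 against SS on HS (limma adjusted p = 0.0197) and -0.89 ± 0.21 on LS (adjusted p = 0.0904), while Mt3 had 0.01 and 0.10 and so matched only in the ups and downs. For Agxt2 they were Aadat, a mitochondrial aminotransferase of kynurenine and aminoadipate (0.98), Acsm2, a mitochondrial acyl-CoA synthetase of kidney (0.97), and Hao2 (0.94). For Khk they were the brush-border phosphate and urate transporter Slc17a1 (0.92), the endocytic receptor megalin, Lrp2 (0.92), and the glutathione-cleaving enzyme Ggt1 (0.91). For Kap they were Hao2 (0.93), Oat (0.90) and Ahcy, which cleaves S-adenosylhomocysteine (0.89). For Fbp1 they were the proteasome subunit Psmb1 (0.97), Atp5f1b, the beta subunit of ATP synthase (0.88), and Nsfl1c, a cofactor of a membrane-fusion ATPase (0.85), of which none is in the proximal tubule list.

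The remaining cell types were seen through few probes. The ratios carry no absolute level, so the labelled tissue can be checked only by which markers held values: 3 of 10 of the thick ascending limb, 6 of 15 of the distal tubule and collecting duct, 6 of 10 of interstitium and muscle, 1 of 9 of endothelium, 4 of 10 of immune cells, 1 of 5 of podocytes and 3 of 5 of blood. In strain 13 against SS on HS, 3 of 6 distal and collecting duct markers rose, the sodium pump regulator Fxyd4 (0.50 ± 0.11), the sodium channel subunit Scnn1a (0.38 ± 0.05) and the water channel Aqp3 (0.35 ± 0.07), and all 6 were above 0 (median 0.29). On LS 0 of 6 passed and 6 were above 0 (median 0.22). These markers thus lay opposite to Gatm in both strain comparisons, and their part in its ratio was not tested. Egf rose among 3 ascending limb markers, Kdr was the 1 endothelial marker and rose (0.32 ± 0.12), Lyz2, the myeloid lysozyme, fell among 3 immune markers (-1.51 ± 0.83), and 0 of 6 interstitial, 0 of 1 podocyte and 0 of 3 blood markers passed on HS. In the SS diet comparison 3 of 5 interstitial markers rose (Col1a1, Col3a1 and Tagln, 0.70 to 0.95). No other marker outside the proximal tubule passed in the remaining comparisons.

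The same RNA pair gave unequal ratios on its dye-swap and forward arrays, which correlated over all probes at r between -0.26 and 0.52 in the 12 pairs. For Kap the dye-swap value was below the forward value in 11 of 12 pairs, by 0.45 on average (from -0.89 to 0.01), and 90.1% of 868 probes with enough pairs had a smaller mean gap. On HS in 13 over SS, Kap had -1.20, -0.48 and -0.71 on dye-swap arrays and -0.43, 0.41 and -0.12 on forward arrays. On dye-swap arrays alone Kap passed as lower in strain 13 on HS (-0.80, adjusted p = 0.00187) and on LS (-0.57, adjusted p = 0.0494). In that setting 411 of 1295 probes passed on HS (204 lower) and 51 of 1156 on LS (34 lower). On forward arrays alone Agxt2 (-0.66, adjusted p = 0.0306) and Khk (-0.67, adjusted p = 0.0353) passed on HS, where 127 of 1276 probes passed (62 lower). Gatm had the opposite and smaller gap, with dye-swap above forward in 9 of 12 pairs and a mean of 0.18 (50.7% of probes smaller), and it passed on HS in both orientations, at -0.87 on dye-swap arrays (adjusted p = 0.00177) and -1.18 on forward arrays (adjusted p = 0.0137). Agxt2 had a mean gap of 0.16 (from -0.40 to 0.63) and Khk of 0.24 (from -0.28 to 0.79). Fbp1 had the smallest mean gap, 0.11, but single gaps from -0.45 to 0.79, 5 below 0 and 7 above, with the largest SD of the 5 genes (0.41), which exceeds the SD of 0.17 of its averaged ratios over the 12 pairs. A dye effect cancels in the average of both arrays only where it is equal on them, which was not tested. The gaps varied between pairs, so some of it may remain. It does not cancel in the 3 RNA pairs named above for which 1 array of Khk or Agxt2 had no value.

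**Figure D4:**
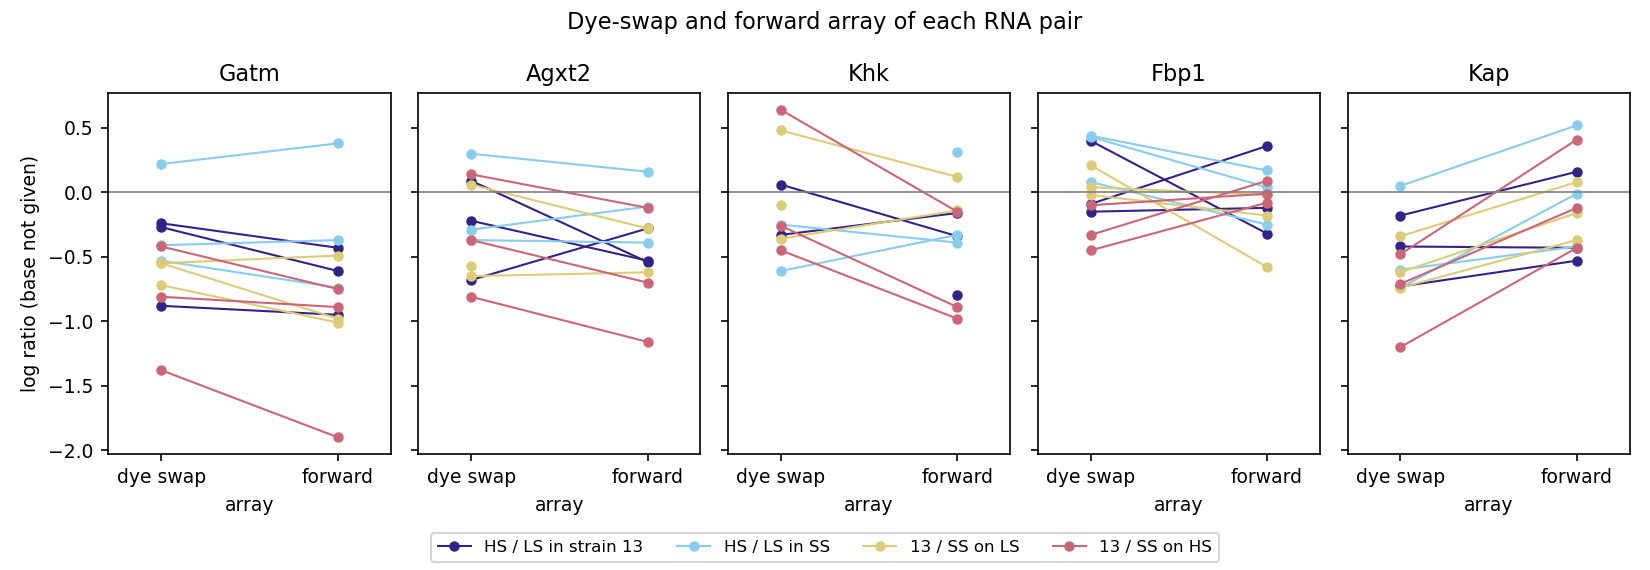
Log ratio (vertical axis, base not given) on the dye-swap and the forward array of each RNA pair, joined by a line and coloured by comparison, for each gene. Kap is lower on the dye-swap array in 11 of 12 pairs, and Gatm is higher there in 9 of 12.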

How the data were processed

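RNA of rat kidney was compared on 24 two-colour cDNA arrays. The authors deposited 1 log ratio per probe and array, of unstated base. How background, dim spots and scaling were treated is not given in the sources used here. Array means lay within 0.0049 of 0, and values were used as deposited. Of 1561 probes with values, 1311 were named by gene identifier through RefSeq (assembly GRCr8), 5 kept the platform symbol, 22 had several symbols and 223 none. Where a listed gene had several probes, the one with most values was used.

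The forward and dye-swap arrays of a replicate were averaged, giving 12 RNA pairs. limma 3.58.1 in R 4.3.3 (lmFit, eBayes) fitted the 4 comparison means to all pairs, tested two-sided against 0 where at least 2 replicates had a value, with Benjamini-Hochberg adjustment over all probes tested at 0.05. It was also run on simulated data with independent pairs, which do not hold the covariance between comparisons named above. In the strain 13 diet group 1 title has no replicate number and was numbered 1. Same-numbered deviations correlated at 0.13 to 0.19 between the diet comparisons of both strains. Over all 18 same-numbered combinations r ran from -0.62 to 0.39 and 5 were above 0.1. Differently numbered deviations were not correlated, so these values cannot show whether the numbers pair. Settings that use the numbers across comparisons assume that they do. The highest correlation between any arrays was 0.74, so no array was a copy. Promoters come from RefSeq. The members, gene lists and tests were chosen with earlier results of these data known. Genes named are the 5 members, all listed genes that passed with examples at the ends of each list, and the 3 genes most alike. A few listed genes were named after their values were seen.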

Additional observations from a re-analysis of the deposited data

How the results depend on the processing

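Of 360 values of the 5 genes under alternatives to the 25 main values, 337 kept direction and side of the threshold, 3 lost a call (all Gatm on HS, given above), 8 gained one and 12 changed sign. Those that changed sign were main values between -0.32 and 0.15, none of them called: on forward arrays alone Fbp1 in the diet comparisons of 13 (-0.0267) and SS (-0.0133) and in the interaction (0.12), and Kap in SS (0.03). On dye-swap arrays alone they were Khk (0.0067) and Fbp1 (0.0767) on LS and Khk in the interaction (0.13). Leaving out a replicate, Fbp1 ranged from -0.0475 (without replicate 1) to 0.0875 in the 13 diet comparison, Agxt2 from -0.29 to 0.015 (without replicate 2) in that of SS, Khk on LS from -0.175 to 0.10 (0.025 without replicate 1, 0.10 without replicate 3), and Gatm in the interaction from -0.525 to 0.05 (without replicate 1). In 13 against SS on HS the 5 genes gave 1 call, 3 on forward arrays alone, 2 on dye-swap arrays alone, 2 in the closed-loop fit (added after the data were seen), 0 fitted alone, and 0 to 1 with a replicate left out. On LS they gave 1 on forward arrays, 2 on dye-swap arrays and 1 in the closed-loop fit, against 0. Calls over all probes moved more. In the order 13 diet, SS diet, 13 over SS on LS, on HS, and interaction, the main counts were 0, 37, 0, 81 and 5. They were 15, 118, 70, 127 and 13 on forward arrays alone, and 3, 62, 51, 411 and 12 on dye-swap arrays alone. On HS, 1276 probes were tested on forward arrays and 1295 on dye-swap arrays, and on LS 1061 and 1156. From the second comparison on they were 61, 33, 15 and 0 with arrays scaled to equal spread, 98, 124, 180 and 26 in the closed-loop fit. Fitted alone, all counts were 0. Probes with complete values gave 58 in the SS diet comparison, 35 on LS and 39 in the interaction. The replicate block gave 40 on HS (30 higher, 10 lower, against 49 and 32) and 8 in the interaction. It changed no call of the 5 genes, and the other counts stayed close to the main ones. Without the SS array of conflicting title the counts were 60 for the SS diet and 12 for the interaction, and without the sparsest LS strain array the interaction had 2. Leaving out a replicate gave 0 to 57 for the SS diet, 0 to 1 on LS, 0 to 19 on HS and 0 to 10 for the interaction: on HS 0 without replicate 1, in the SS diet 0 without replicate 2 or 3. The causes were not tested. Array intensities were not used here, so signal over background is unknown.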
